A study of Mus musculus with 62 samples.

Results

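RNA sequencing of striatum from 6 female mice given a mixture of polychlorinated biphenyls (PCBs) at 1 mg/kg was compared with that of 4 female mice given vehicle. These 10 libraries were chosen by the tissue and treatment in their labels, out of 21 striatum libraries and 62 libraries of striatum, prefrontal cortex and liver in the whole series. All mice were C57BL/6, an inbred strain, and none is labelled as carrying a transgene or a deletion. The MARBLES mixture was taken by mouth, and the study's doses were 0 (vehicle), 0.1, 1 and 6 mg/kg. The other striatum libraries came from 5 mice given 0.1 mg/kg and 6 given 6 mg/kg. The age of the mice and the length of the exposure are not given in the sources used here. The striatum was taken as a tissue punch, so each library holds RNA of every cell type in the punch. P-values of genes in the striatum comparisons weigh a difference against the spread between samples, estimated from all 21 striatum libraries unless stated. The question was how gene expression in the brain and liver of females differs after oral exposure to the mixture.

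PCBs are persistent industrial chemicals. Some congeners bind the aryl hydrocarbon receptor, others activate the constitutive androstane receptor that drives Cyp2b10 in liver, and others sensitize ryanodine receptors, the channels that release calcium from the endoplasmic reticulum. The striatum is built mainly of GABA-releasing projection neurons that receive dopamine. Those of the direct pathway carry the dopamine receptor Drd1 with the peptide genes Tac1 and Pdyn, and those of the indirect pathway carry Drd2 with Adora2a, Penk and Gpr6. Activity and dopamine induce immediate early genes such as Fos, Junb and Arc in these cells.

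The 6 libraries at 1 mg/kg held 8.28 to 11.97 M counts and the 4 vehicle libraries 10.1 to 10.5 M counts (M, mega). Striatal projection neuron markers were present in every library. The summed level of 10 such markers was 3831 to 7910 CPM (counts per 1000000 counts of a library, scaled by edgeR's TMM factors) in vehicle and 3482 to 7266 at 1 mg/kg, with animal 48 the highest at that dose. Markers of neighbouring tissue varied as well. The summed level of 12 markers of cortical excitatory neurons was 298 to 1424 CPM in vehicle and 436 to 2049 CPM at 1 mg/kg, and that of 12 choroid plexus and ependymal markers 80.1 to 788 CPM in vehicle and 62.8 to 4539 CPM at 1 mg/kg. A limit of 1000 CPM on either sum, chosen after these values were seen, marks 4 of the 6 libraries at 1 mg/kg (animals 41, 45, 46 and 50) and 1 of the 4 vehicle libraries (animal 8). Results are also given without the 7 striatum libraries over that limit (the marker-rich libraries). This leaves 2 libraries at 1 mg/kg (animals 42 and 48) and 3 of vehicle. The libraries also differed by base composition. For each library, the Spearman correlation across genes between the deviation from the all-library mean and the GC content of the transcript (its GC slope) was -0.57 to -0.18 in 5 libraries at 1 mg/kg and 0.28 in animal 50, and -0.41, -0.22, 0.25 and 0.39 in vehicle. The mean GC slope was -0.30 at 1 mg/kg and 0.0031 in vehicle (two-sided exact permutation test, P = 0.21, Benjamini-Hochberg adjusted over 6 tests 0.419, smallest possible P 0.00952).

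**Figure D1:**
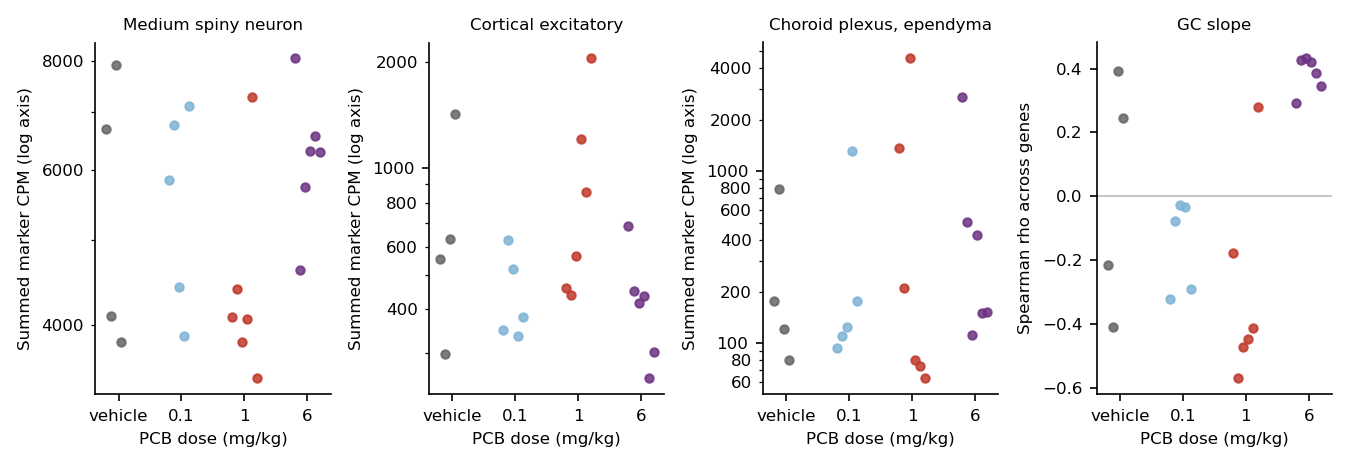
Each point is 1 striatum library, by dose: the summed CPM of striatal projection neuron, cortical excitatory and choroid plexus markers (log axes) and the GC slope (Spearman correlation, linear axis). Marker sums spread widely within every dose, with the highest choroid plexus sum at 4539 CPM in a library at 1 mg/kg, and the GC slopes at 6 mg/kg are all above 0.

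The livers of the same dose groups give a readout of the exposure in another tissue. Cyp2b10, a cytochrome P450 of drug metabolism, was at 0.738 to 2.25 CPM in the 4 vehicle livers and 2.54 to 14.2 CPM in the 6 livers at 1 mg/kg. Cyp1a2, a cytochrome P450 controlled by the aryl hydrocarbon receptor, was at 319.8 to 374 CPM in vehicle and 475 to 970.5 CPM at 1 mg/kg. The groups of Cyp2b10 and Cyp1a2 did not overlap. Those of Cyp1a1, another target of that receptor, did, at 0.357 to 1.06 CPM in vehicle and 0.599 to 2.18 CPM at 1 mg/kg.

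In the striatum, no single gene passed the test at 1 mg/kg. Of 15118 genes tested with edgeR's quasi-likelihood test, 0 had a Benjamini-Hochberg adjusted P under 0.05 against vehicle (0%), and the smallest adjusted P was 0.347. At an unadjusted P under 0.05 there were 1113 genes (7.36%), 578 higher (3.82%) and 535 lower (3.54%). That number was 498 without vehicle animal 7, 717 without animal 45 of the 1 mg/kg group, 1769 without vehicle animal 4 and 2285 without animal 50 of the 1 mg/kg group. With only the 2 groups compared in the fit it was 794 of 14797 genes, and 0 passed after adjustment. DESeq2's Wald test gave 1186 at an unadjusted P under 0.05, and 6 genes at an adjusted P under 0.05: Macir and Cdh6 higher, and Slc25a25, Sema3f, Gm4675 and Zfp503 lower. The 6 values at 1 mg/kg all lay above the 4 vehicle values for 69 genes (0.456%) and all below them for 64 genes (0.423%). The genes described next are the 10 in each direction with the smallest P among those whose 6 libraries at 1 mg/kg were all above or all below the mean of vehicle, and 14 of these 20 had groups that did not overlap.

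**Figure D2:**
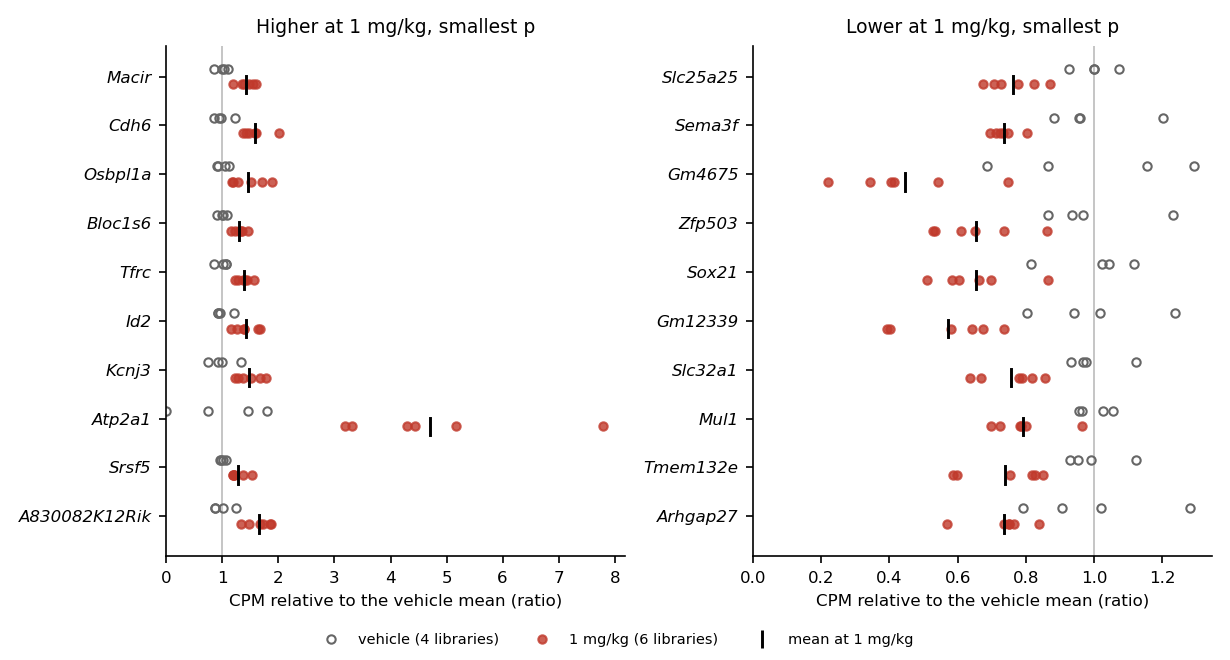
The 20 leading genes, 10 higher and 10 lower at 1 mg/kg: each point is 1 library's CPM divided by the vehicle mean (linear axis), open for the 4 vehicle and filled for the 6 libraries at 1 mg/kg, with the mean at 1 mg/kg as a bar. For 14 of the 20 genes the groups do not overlap, although no gene passed edgeR's adjusted threshold.

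Macir, a regulator of macrophage function, had the smallest P. It stood at 42.4, 33.0, 38.6 and 39.98 CPM in the vehicle libraries, and its lowest, median and highest values at 1 mg/kg were 45.6, 55.1 and 61.8 CPM. The groups did not overlap. The log2 difference was 0.51 (SE 0.101, unadjusted P = 3.75e-05, adjusted P = 0.347). The means at 0.1 and 6 mg/kg were 40.1 and 38.3 CPM, both near the vehicle mean of 38.5 CPM, so the higher level was seen at the middle dose. DESeq2 gave an adjusted P of 0.00773. Cdh6, a cell-adhesion cadherin, was at 13.3, 17.4, 12.2 and 14.0 CPM in vehicle and at 19.5, 21.7 and 28.6 CPM (lowest, median, highest) at 1 mg/kg. Every library at 1 mg/kg was above every vehicle library, with a log2 difference of 0.66 (SE 0.141, edgeR adjusted P = 0.347, DESeq2 adjusted P = 0.0257).

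Other leading genes higher at 1 mg/kg included genes of iron uptake, membrane traffic, excitability and splicing. Tfrc, the transferrin receptor that brings iron into cells, was at 62.8, 63.1, 50.5 and 59.4 CPM in vehicle and 71.8, 82.0 and 91.8 CPM at 1 mg/kg. The groups were apart, with a log2 difference of 0.47 (SE 0.111, edgeR adjusted P = 0.441). Osbpl1a, an oxysterol-binding protein relative, was at 145, 126, 128 and 154 CPM in vehicle and 162, 192 and 262 CPM at 1 mg/kg, also without overlap (log2 difference 0.54, SE 0.126, and 0.35 without the marker-rich libraries). Kcnj3, a subunit of the G-protein-gated potassium channel, was at 46.1, 49.9, 37.5 and 66.6 CPM in vehicle and 61.7, 72.0 and 89.0 CPM at 1 mg/kg. Its groups overlapped because vehicle animal 8 was above the lowest library at 1 mg/kg (log2 difference 0.56, SE 0.134). Id2, an inhibitor of helix-loop-helix transcription factors, also overlapped, at 57.3, 43.5, 43.7 and 45.96 CPM against 55.2, 65.8 and 79.8 CPM (log2 difference 0.50, SE 0.119).

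Bloc1s6, a subunit of a complex that forms lysosome-related organelles, was at 23.9, 25.7, 21.7 and 24.3 CPM in vehicle and 27.5, 31.4 and 35.0 CPM at 1 mg/kg. Srsf5, a serine- and arginine-rich splicing factor, was at 132, 126, 138 and 124 CPM in vehicle and 154, 157 and 199 CPM at 1 mg/kg. Neither gene's groups overlapped, and the log2 differences were 0.38 (SE 0.0902) and 0.36 (SE 0.0943). That of Srsf5 was 0.20 (unadjusted P = 0.0564) with a correction for the GC content and length of transcripts. Atp2a1, a calcium pump of the sarcoplasmic and endoplasmic reticulum best known from fast skeletal muscle, was at very low levels, 0.478, 0.385, 0 and 0.199 CPM in vehicle and 0.849, 1.16 and 2.07 CPM at 1 mg/kg. The long noncoding RNA A830082K12Rik was at 8.31, 10.3, 7.21 and 7.18 CPM in vehicle and 10.9, 14.0 and 15.4 CPM at 1 mg/kg, again without overlap. Both overlap another annotated gene, Atp2a1 with Rabep2 and A830082K12Rik with Nr2f1, and the use of strand in counting is not given, so reads of overlapping genes cannot be told apart. The same holds for Cdh6 and Osbpl1a among the 10 higher genes.

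Slc25a25, which encodes a mitochondrial carrier exchanging ATP-magnesium for phosphate, led the genes that were lower. The gene lies at chr2:32414487-32451470 on the minus strand of GRCm38 and overlaps the annotation of Naif1, so reads of the 2 genes cannot be told apart where they share sequence. It was at 108, 101, 116 and 108 CPM in vehicle, and at 73.2, 81.6 and 94.6 CPM (lowest, median, highest) at 1 mg/kg. All 6 libraries at 1 mg/kg were below all 4 of vehicle, with a log2 difference of -0.39 (SE 0.0800, unadjusted P = 5.90e-05, edgeR adjusted P = 0.347, DESeq2 adjusted P = 0.00773). The mean was 114 ± 3.81 CPM (SD, 5 libraries) at 0.1 mg/kg and 93.0 ± 6.21 CPM (SD, 6 libraries) at 6 mg/kg. Correction for GC content and length left the difference at -0.41 (unadjusted P = 6.91e-05), and leaving out the libraries over 1000 CPM of cortical or choroid plexus markers left it at -0.31 (unadjusted P = 0.0172). RefSeq lists 3 starts for Slc25a25, and the stretch before the third is shown because it alone of the 3 holds the palindrome TGACGTCA, the letters of the cAMP response element, which is in capitals. It is chr2:32424067-32424266, minus strand, GRCm38.p6, the 200 bases before the start, printed 5′ to 3′ with the start to the right.
Slc25a25 (start 3): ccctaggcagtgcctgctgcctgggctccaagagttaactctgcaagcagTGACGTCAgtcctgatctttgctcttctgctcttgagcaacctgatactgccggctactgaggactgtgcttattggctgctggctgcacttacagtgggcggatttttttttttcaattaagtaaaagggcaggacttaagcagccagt
The palindrome begins 150 bases before that start. The stretches before the other 2 starts hold neither it nor its shorter part TGACG.

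Among the other lower genes, Sema3f, a secreted axon guidance cue, was at 30.4, 28.03, 38.1 and 30.3 CPM in vehicle and 22.0, 23.1 and 25.5 CPM at 1 mg/kg. The groups were apart, with a log2 difference of -0.44 (SE 0.0923, edgeR adjusted P = 0.347, DESeq2 adjusted P = 0.0257). Zfp503, a zinc-finger protein of striatal development, was at 41.9, 37.5, 53.4 and 40.6 CPM in vehicle and 22.8, 27.4 and 37.4 CPM at 1 mg/kg (log2 difference -0.61, SE 0.135), so its nearest libraries nearly touched. Slc32a1, the transporter that loads GABA into synaptic vesicles and is carried by all striatal projection neurons and GABA interneurons, was at 540.3, 536, 622 and 517 CPM in vehicle and 352, 435 and 474 CPM at 1 mg/kg. No library at 1 mg/kg reached the lowest vehicle library, and the log2 difference was -0.40 (SE 0.0999, unadjusted P = 0.000527, edgeR adjusted P = 0.561). With the GC and length correction the log2 difference of Slc32a1 was -0.24 (unadjusted P = 0.0510), and without the marker-rich libraries -0.28 (unadjusted P = 0.0244).

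Sox21, a transcription factor of the Sox family, was at 22.3, 17.7, 22.7 and 24.3 CPM in vehicle and 11.1, 13.8 and 18.8 CPM at 1 mg/kg (log2 difference -0.61, SE 0.138). The long noncoding RNA Gm4675, which overlaps Sox21, was at 6.21, 4.91, 8.30 and 9.27 CPM in vehicle and 1.58, 2.94 and 5.37 CPM at 1 mg/kg (log2 difference -1.16, SE 0.253). Both had overlapping groups, and they cannot be counted as separate observations where their annotations share sequence. Gm12339, another noncoding RNA, and Tmem132e, a transmembrane protein gene, had groups apart, at 7.64 to 11.8 CPM against 3.73 to 7.01 CPM and at 44.9 to 54.4 CPM against 28.3 to 41.2 CPM. Mul1, a ubiquitin ligase of the mitochondrial outer membrane, and Arhgap27, a GTPase-activating protein, had log2 differences of -0.34 and -0.44 with overlapping groups. The log2 difference of Tmem132e went from -0.44 to -0.27 (unadjusted P = 0.0389) with the GC and length correction, and that of Arhgap27 to -0.28 (unadjusted P = 0.0171). Of the 10 lower genes, 7 overlap another annotated gene, as do 4 of the 10 higher ones. The transcripts of the higher genes had a GC content of 39.8% to 55.3% (9 genes with a value) and those of the lower genes 49.0% to 61.9% (8 genes). A830082K12Rik, Gm4675 and Gm12339 had no GC value, so the correction says nothing about them. The transcript matched to Macir was 40378 bases long, more than the span of the gene (chr1:97643902-97662018), so its correction is not interpreted. Its unadjusted P went from 3.75e-05 to 0.0192 with the correction and was 1.73e-05 with the GC slope as a covariate. The differences of the remaining leading genes, other than Srsf5, Slc32a1, Tmem132e and Arhgap27, moved by less than 1.5 times with the correction.

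Genes of striatal projection neurons had a median log2 difference below 0 with all 10 libraries compared and near 0 without the marker-rich libraries. Of 48 tested genes of dopamine signalling and projection neurons, 37 had a negative and 11 a positive log2 difference, with a median of -0.18 against 0.0085 over all 15118 genes (7804 positive, 7314 negative). At an unadjusted P under 0.05, 6 were lower and 0 higher, beside 3.54% and 3.82% of all genes, and edgeR called 0 after adjustment. The summed level of the list was 13562 to 22759.6 CPM in vehicle and 12954 to 23306 CPM at 1 mg/kg, with animal 48 above every vehicle library. With the GC and length correction the median was -0.18, with 1 lower and 0 higher, and with the GC slope as a covariate -0.28, with 5 lower and 0 higher. Without the marker-rich libraries it was 0.05, with 2 lower and 0 higher. That setting keeps animals 42 and 48 at 1 mg/kg, and animal 48 had the highest summed level of the list. In a bulk punch, fewer cells of a type and less RNA per cell cannot be told apart. Ppp1r1b, which encodes DARPP-32, an integrator of dopamine signals, was at 1853, 984, 2535 and 1086 CPM in vehicle and 896, 1027 and 1744 CPM at 1 mg/kg. The log2 difference was -0.53 (SE 0.232, unadjusted P = 0.0331), and the vehicle libraries of animals 4 and 8 lay within the range at 1 mg/kg.

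The direct-pathway genes overlapped widely between the groups. Drd1 was at 192, 129, 196 and 111 CPM in vehicle and 89.0, 128 and 232 CPM at 1 mg/kg, and Tac1, the substance P precursor, at 176, 105, 171 and 124 CPM and 86.7, 119 and 222 CPM. Their log2 differences of -0.19 (SE 0.234) and -0.14 (SE 0.233) became 0.089 and 0.23 without the marker-rich libraries. Animal 48, 1 of the 2 libraries at 1 mg/kg in that setting, had the highest value of both genes, 232 and 222 CPM. Pdyn, the dynorphin precursor, was at 149.6, 103, 181 and 165 CPM against 77.4, 105 and 156 CPM (log2 difference -0.46, SE 0.208, unadjusted P = 0.0360). For the indirect pathway, Drd2 was at 228, 139, 285 and 116 CPM in vehicle and 108, 139 and 237 CPM at 1 mg/kg. Adora2a, the adenosine receptor of these cells, was at 357, 195, 418 and 189.9 CPM against 175, 188 and 342 CPM, and Penk, the enkephalin precursor, at 1143, 665, 1209 and 673 CPM against 549, 697 and 1203 CPM. All 3 were split alike in vehicle, high in animals 3 and 7 and low in animals 4 and 8, and their log2 differences of -0.36, -0.45 and -0.31 had SEs of 0.247, 0.230 and 0.217. Gpr6, an orphan receptor of indirect-pathway neurons, was at 87.5, 55.97, 111 and 59.8 CPM against 45.1, 50.6 and 83.6 CPM (log2 difference -0.51, SE 0.187, unadjusted P = 0.0123). Sp9 and Six3, transcription factors of indirect-pathway neurons, had log2 differences of -0.20 (SE 0.0807) and -0.29 (SE 0.122).

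**Figure D3:**
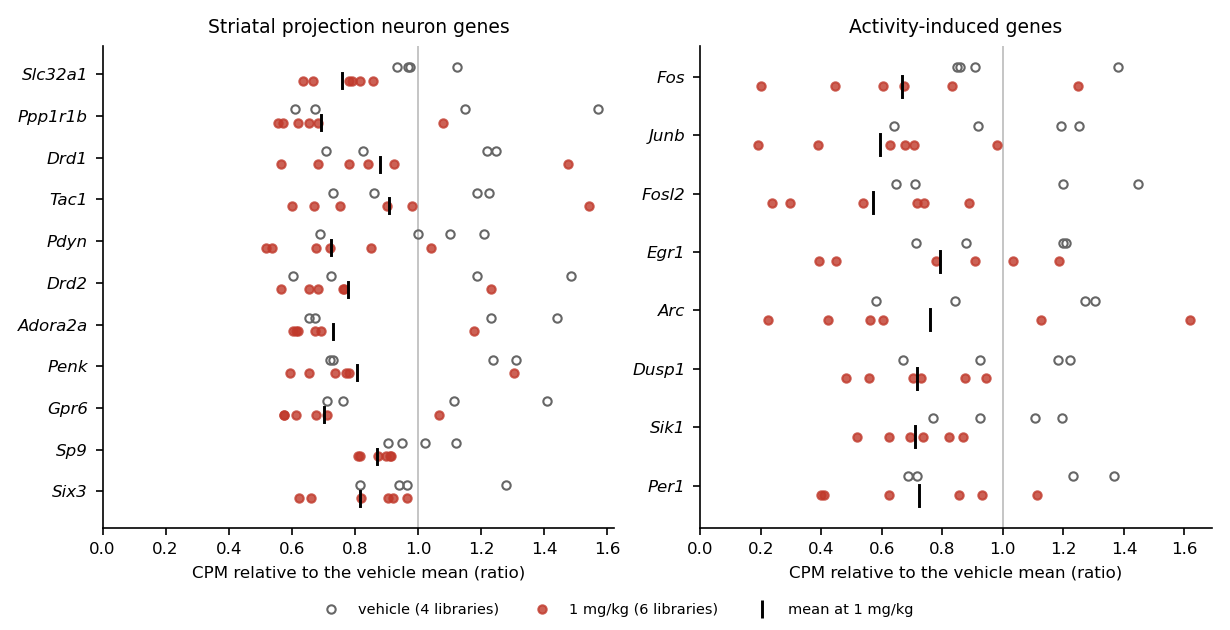
CPM divided by the vehicle mean (linear axis) for 11 projection neuron genes and 8 activity-induced genes, with open points for the 4 vehicle libraries, filled points for the 6 libraries at 1 mg/kg and a bar for the mean at 1 mg/kg. Slc32a1 is the only one of the 19 genes whose groups do not overlap, and 1 library at 1 mg/kg stands above the others for most of the projection neuron genes.

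Immediate early genes had a median log2 difference below 0, with and without the marker-rich libraries. Of 46 tested, 39 had a negative and 7 a positive log2 difference, with a median of -0.26, and 8 were lower and 0 higher at an unadjusted P under 0.05, beside 3.54% and 3.82% of all genes, while edgeR called 0 after adjustment. The summed level of the list was 2351 to 3840 CPM in vehicle and 1657 to 3565 CPM at 1 mg/kg. Animals 41 (1657 CPM) and 42 (1814 CPM) were below every vehicle library, and the other animals at 1 mg/kg lay within the vehicle range. Without the marker-rich libraries, which keeps animals 42 and 48 at 1 mg/kg, the median was -0.29, with 8 lower. With the GC and length correction it was -0.22, with 3 lower, and with the GC slope as a covariate -0.18, with 2 lower and 1 higher. With the cortical marker score as a covariate it was -0.34, with 19 lower and 0 higher, while the number over all genes at that threshold also went from 1113 to 2169. Sik1, a kinase induced by cAMP, was at 26.1, 31.3, 40.5 and 37.5 CPM in vehicle and 17.6, 24.2 and 29.4 CPM at 1 mg/kg (log2 difference -0.49, SE 0.154, unadjusted P = 0.00396, edgeR adjusted P = 0.675). Only the vehicle library of animal 3 lay within the range at 1 mg/kg. Dusp1, a phosphatase that turns off MAP kinases, was at 40.1, 29.1, 51.2 and 52.9 CPM against 20.9, 31.1 and 40.9 CPM (log2 difference -0.48, SE 0.166, unadjusted P = 0.00784). Junb, an AP-1 transcription factor, was at 119.5, 83.3, 163 and 155 CPM against 24.8, 84.9 and 128 CPM (log2 difference -0.75, SE 0.288, unadjusted P = 0.0171).

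Fosl2, a further AP-1 subunit, was at 48.7, 44.5, 82.4 and 99.4 CPM in vehicle and 16.2, 43.2 and 61.1 CPM at 1 mg/kg (log2 difference -0.81, SE 0.328, unadjusted P = 0.0227). Fos itself was at 29.05, 28.7, 30.7 and 46.7 CPM against 6.82, 21.5 and 42.1 CPM (log2 difference -0.58, SE 0.322, unadjusted P = 0.0853). Arc, a postsynaptic regulator of glutamate receptors, was at 168, 116, 254 and 261 CPM against 45.1, 117 and 324 CPM with a log2 difference of -0.40 and an SE of 0.374. Egr1 and Per1 had log2 differences of -0.34 (SE 0.239) and -0.47 (SE 0.246). For each of these early genes the groups overlapped, and vehicle animals 7 and 8 were the 2 highest of vehicle.

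Promoters of 36 of the early genes were matched in RefSeq, and 2 are shown because they hold the letters of the cAMP response element, through which activity induces many early genes. TGACG, on either strand, is in capitals. The palindrome TGACGTCA contains TGACG on both strands and so counts as 2 of its matches. Dusp1 is chr17:26508473-26508672 and Junb chr8:84978749-84978948, both on the minus strand of GRCm38.p6, the 200 bases before the start, printed 5′ to 3′.
Dusp1: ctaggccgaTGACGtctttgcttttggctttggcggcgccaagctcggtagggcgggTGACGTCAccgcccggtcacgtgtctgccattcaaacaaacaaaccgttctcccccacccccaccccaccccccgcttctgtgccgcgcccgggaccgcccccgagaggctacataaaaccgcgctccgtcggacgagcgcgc
Junb: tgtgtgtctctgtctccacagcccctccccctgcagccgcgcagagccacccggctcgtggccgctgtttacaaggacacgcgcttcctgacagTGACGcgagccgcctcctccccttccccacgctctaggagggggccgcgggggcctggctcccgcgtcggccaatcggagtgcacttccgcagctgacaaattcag
Dusp1 has 3 matches between 191 and 140 bases before its start, 2 of them from the palindrome, and Junb has 1 at 106 bases. In windows of the same length, TGACG was present for 23 of the 36 early genes (63.9%) and 17.5% of 27025 genes with a listed promoter, and TGACGTCA for 7 (19.4%) and 1.69%. A total of 5 motifs was searched, chosen after expression values were seen. A match describes letters and does not show that a factor binds there.

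No gene through which PCBs are known to act passed the test in the striatum. Ahr, the aryl hydrocarbon receptor, was at 7.55, 6.65, 8.40 and 11.4 CPM in vehicle and 5.06, 8.44 and 11.5 CPM at 1 mg/kg, with a log2 difference of -0.02 (SE 0.208) that turned to 0.18 without the marker-rich libraries. Cyp1b1, its target, was at 2.58, 2.79, 2.67 and 6.38 CPM against 2.66, 3.14 and 3.53 CPM (log2 difference -0.22, SE 0.269, and 0.16 without the marker-rich libraries), and only vehicle animal 8 stood apart. Cyp1a1 was not analysed here in the striatum. Of 27 tested genes of the xenobiotic response, 2 were higher and 2 lower at an unadjusted P under 0.05, beside 3.82% and 3.54% of all genes, with a median log2 difference of -0.02. The 2 higher were Abcg2, a drug efflux pump (0.34), and Maoa, monoamine oxidase A (0.24), and the 2 lower Rxra, a retinoid X receptor (-0.20), and Por, the electron donor of cytochromes P450 (-0.24).

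Among ryanodine receptors, Ryr1 was at 45.3, 29.6, 60.3 and 34.1 CPM in vehicle and 16.05, 36.8 and 49.2 CPM at 1 mg/kg (log2 difference -0.23, SE 0.240). Ryr2 was at 106, 121, 111 and 134 CPM against 86.9, 112 and 166 CPM (0.01, SE 0.188, and between -0.11 and 0.092 with single libraries left out). Ryr3 was at 83.2, 71.5, 92.2 and 56.1 CPM against 54.2, 63.8 and 112 CPM (-0.11, SE 0.202, and 0.074 without the marker-rich libraries). All 3 overlapped between the groups. Over 49 genes of calcium release and entry, the median was -0.03, with 1 higher and 2 lower at an unadjusted P under 0.05, near the shares of all genes (3.82% and 3.54%). These were the channel subunits Cacna2d1 (0.32) and Cacna2d2 (-0.39) and Jph4, a junctophilin that ties the endoplasmic reticulum to the cell membrane (-0.35).

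Of 24 thyroid hormone genes, 0 reached an unadjusted P under 0.05 in either direction, with a median of 0.06. The receptor gene Thra was at 855, 728, 914 and 1029 CPM in vehicle and 610.2, 729.5 and 1009 CPM at 1 mg/kg (log2 difference -0.24, SE 0.119, unadjusted P = 0.0566). Dio3, which inactivates thyroid hormone, was at 3.34, 2.22, 3.26 and 5.88 CPM against 0.311, 1.54 and 4.58 CPM (log2 difference -0.99, SE 0.480). Both overlapped between the groups. Thrb, Dio2 and Klf9, a target of the hormone, had log2 differences of 0.11, 0.01 and 0.10, and those of Thrb and Dio2 turned to -0.0051 and -0.14 with the cortical marker score as a covariate.

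Most other gene groups had medians near that of all genes. RNA splicing factors and nuclear noncoding RNAs had the most members at an unadjusted P under 0.05 in the higher direction, 6 of 36 with 0 lower and a median of 0.10, beside 3.82% higher and 3.54% lower over all genes. With the correction for base composition and length there were 0 higher and 2 lower, with a median of -0.01, and 873 of all genes were at that threshold against 1113 without it. After Srsf5, these were led by Rbm25 (0.30, SE 0.0990) and Srsf6 (0.25, SE 0.0822), both splicing factors. Snhg11, a neuronal noncoding RNA, was at 355 to 410.0 CPM in vehicle and 412 to 784 CPM at 1 mg/kg, without overlap. Interferon-response genes had a median of 0.22 over 38 tested genes, 29 positive and 9 negative. At an unadjusted P under 0.05, 2 were higher and 0 lower, beside 3.82% and 3.54% of all genes. There were 5 higher without the marker-rich libraries and 7 higher with the cortical marker score as a covariate. The number over all genes at that threshold was 1113 in the full fit and 822 and 2169 in those settings. The 2 of the full fit, Ifih1, a sensor of viral RNA, and Xaf1, an apoptosis factor, had log2 differences of 0.62 (SE 0.254) and 0.72 (SE 0.300). The interferon median was 0.17 with the GC and length correction, 0.12 with the GC slope as a covariate and 0.36 without the marker-rich libraries.

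Of 33 genes of cholesterol synthesis and its control, 3 were higher at an unadjusted P under 0.05, Hmgcs1 (0.24), Idi1 (0.30) and Msmo1 (0.30), all enzymes of the pathway, and 1 lower, Scap (-0.26), the escort of its sterol-sensing transcription factors, with a median of 0.03. Of 23 glucocorticoid-response genes, 1 was higher and 1, Dusp1, lower at that threshold, with a median of 0.03. The higher one was Hsd11b1, which regenerates active glucocorticoid, at 4.78, 4.24, 1.78 and 2.99 CPM in vehicle and 3.82, 8.58 and 13.7 CPM at 1 mg/kg. Its log2 difference of 1.36 (SE 0.370, unadjusted P = 0.00129, edgeR adjusted P = 0.572) came with overlapping groups. The remaining lists are given as median log2 difference and counts higher and lower at an unadjusted P under 0.05. Glutamate receptors and scaffolds had -0.05, with 0 and 2 of 48, the latter Grm4 and Shank3, and GABA receptor genes 0.05, with 0 and 1 of 25, the chloride exporter Slc12a5. Neuropeptides had 0.02, with 1 and 2 of 29, and clock genes 0.01, with 1 and 0 of 26, the former Rora. Autism risk genes had -0.04, with 0 and 2 of 50, and DNA methylation genes -0.08, with 1 and 1 of 24. Antioxidant genes had 0.04, with 0 and 3 of 31, and cytosolic heat shock chaperones -0.02, with 1 and 1 of 28. Genes of the unfolded protein response had 0.04, with 0 and 2 of 29, respiratory chain subunits 0.02, with 1 and 1 of 73, and ribosomal proteins 0.01, with 0 and 1 of 77. Over all genes 3.82% were higher and 3.54% lower at this threshold, and none of the 11 lists had over 3 members in a direction.

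**Figure D4:**
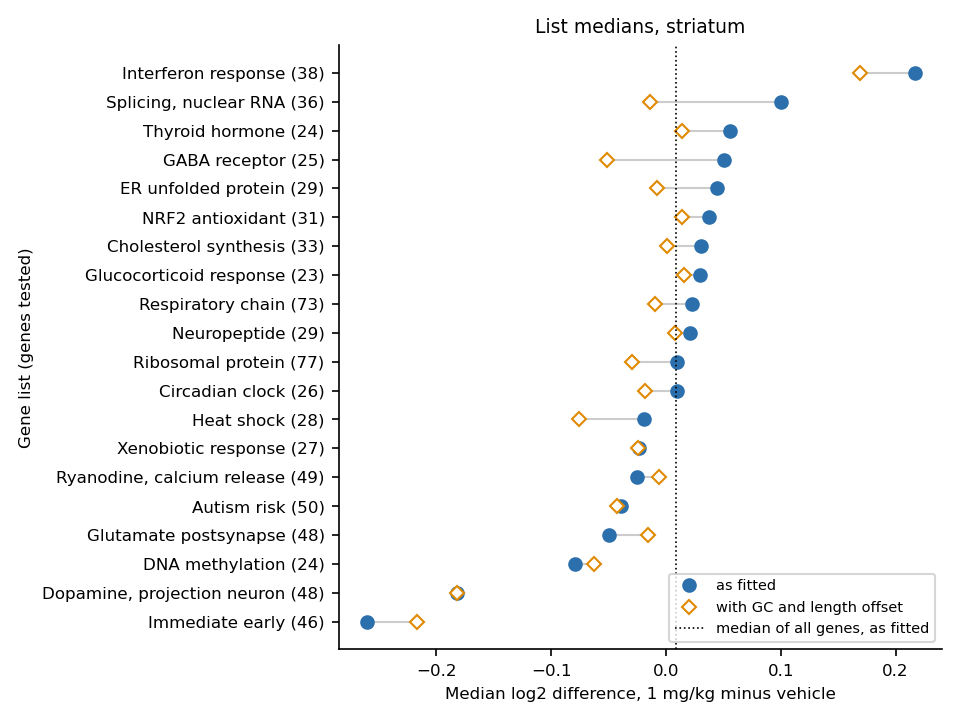
Median log2 difference (1 mg/kg minus vehicle) of 20 gene lists, as fitted and with a correction for GC content and length, beside a line for all genes. The immediate early genes (-0.26) and projection neuron genes (-0.18) lie lowest and the interferon-response genes (0.22) highest, and the splicing list moves from 0.10 to -0.01 with the correction.

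edgeR called 0 markers of other cell types after adjustment, and their counts at an unadjusted P under 0.05 stand beside 3.82% higher and 3.54% lower over all genes. Of 10 interneuron markers, 1 was higher and 3 lower at an unadjusted P under 0.05, with a median of -0.27. Without the marker-rich libraries the median was -0.17, with 1 higher and 1 lower. Lhx6, a transcription factor of interneurons and pallidal neurons, was at 53.9, 56.8, 52.5 and 59.2 CPM in vehicle and 23.5, 42.3 and 45.01 CPM at 1 mg/kg, without overlap (log2 difference -0.49, SE 0.175, unadjusted P = 0.0107). Chat, of cholinergic neurons, and Nos1, of a class of interneurons, had log2 differences of -0.45 (SE 0.200) and -0.34 (SE 0.163), while Vip, a peptide of cortical interneurons, was at 7.07, 2.41, 2.86 and 9.37 CPM against 6.94, 9.09 and 19.5 CPM (1.14, SE 0.399). Of 10 genes listed for the neighbouring thalamus and pallidum, 5 had a positive and 5 a negative log2 difference, from -0.71 to 0.62 with a median of 0.05, and 0 were higher and 3 lower at that threshold. The transcription factors Lhx8 and Gbx1 were the 2 of these whose groups did not overlap. Lhx8 was at 21.4, 20.7, 20.5 and 19.3 CPM in vehicle and 9.42, 13.1 and 18.1 CPM at 1 mg/kg (log2 difference -0.63, SE 0.202, unadjusted P = 0.00496), and Gbx1 at 15.96, 14.1, 13.4 and 13.1 CPM against 3.93, 8.83 and 11.9 CPM (-0.71, SE 0.269).

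Of 20 oligodendrocyte markers, 16 had a positive log2 difference, with a median of 0.21 and 2 higher at an unadjusted P under 0.05. Mbp, which encodes myelin basic protein, had a log2 difference of 0.10 (SE 0.178), which turned to -0.21 without the marker-rich libraries. The summed oligodendrocyte level was 5186 to 7745 CPM in vehicle and 5422 to 12926 CPM at 1 mg/kg. Astrocyte and microglial markers had medians of 0.06 and 0.02. Of 13 vascular markers, 6 had a positive and 7 a negative log2 difference, with a median of -0.05, and 2 were higher and 1 lower at that threshold. The smallest P was that of Slco1a4, an organic anion transporter of brain endothelium, at 36.1, 31.1, 29.8 and 26.7 CPM against 31.7, 41.2 and 43.8 CPM (0.37, SE 0.102, unadjusted P = 0.00147). Of 10 meningeal markers, 9 were negative and 3 lower at that threshold, with a median of -0.29. Medians of 0.39 for 12 cortical excitatory and 1.05 for 12 choroid plexus markers had 0 genes at an unadjusted P under 0.05 in either direction, and the highest sums were in animals 50 and 45. The part of these cell types in the differences of single genes was not tested beyond the settings given.

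The 0.1 mg/kg group offers a comparison in which no vehicle library enters the difference, although all 21 libraries share the estimate of the spread. Between 1 and 0.1 mg/kg, edgeR called 1 of 15118 genes (0.00661%), Slc25a25, which fell at the higher of these doses. It was at 119, 108.5, 116, 114 and 113 CPM in the 5 libraries at 0.1 mg/kg and 73.2, 81.6 and 94.6 CPM (lowest, median, highest) at 1 mg/kg, without overlap (log2 difference -0.46, SE 0.0754, edgeR adjusted P = 0.0409). The call was lost when only these 2 groups were fitted, with median-ratio scaling, without a count filter, with the GC slope as a covariate and without the marker-rich libraries. The call was also lost when any of animals 42, 45, 46 and 50 of the 1 mg/kg group or animals 23, 25, 28 and 29 of the 0.1 mg/kg group was left out. It shares the libraries at 1 mg/kg with the comparison against vehicle, so the 2 results are not independent. At an unadjusted P under 0.05 there were 1458 genes (9.64%), 875 higher (5.79%) and 583 lower (3.86%), and DESeq2 called 83, of which 55 were higher and 28 lower. Srsf5 was at 113 to 126 CPM at 0.1 mg/kg, below every library at 1 mg/kg (log2 difference 0.49, SE 0.0884, edgeR adjusted P = 0.0595).

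Several gene lists, chaperones among them, had medians below 0 at 1 relative to 0.1 mg/kg. Of 28 cytosolic heat shock genes, 13 were lower and 0 higher at an unadjusted P under 0.05, with a median of -0.20, beside 3.86% and 5.79% of all genes, and of 29 genes of the unfolded protein response, 11 were lower and 0 higher, with a median of -0.13. Without the marker-rich libraries, 7 and 8 were lower, while the number over all genes at that threshold went from 1458 to 957. edgeR called 0 of either list after adjustment, and 2 and 4 lower with the GC and length correction, while DESeq2 called 3 and 5 lower. Other lists had, at an unadjusted P under 0.05, 0 higher and 11 lower of 77 ribosomal protein genes (median -0.18), 0 and 5 of 73 respiratory chain genes (-0.11), 0 and 6 of 48 projection neuron genes (-0.21), 2 and 8 of 46 immediate early genes (-0.18), 0 and 5 of 23 glucocorticoid-response genes (-0.14), 6 and 0 of 38 interferon-response genes (0.25) and 9 and 1 of 33 cholesterol genes (0.12), and the remaining pathway lists had at most 4 in a direction. Cell type markers moved with these lists. Of 12 cortical excitatory markers, 8 were higher and 0 lower at that threshold (median 1.35), with a summed level of 336 to 625 CPM at 0.1 mg/kg and 436 to 2049 CPM at 1 mg/kg. The 10 projection neuron markers were all negative (median -0.28), with 0 at that threshold and summed levels of 3890 to 7100 and 3482 to 7266 CPM. Interneuron markers had 0 higher and 4 lower of 10 (median -0.32). With the cortical marker score as a covariate, 10 of the heat shock and 10 of the unfolded protein response genes were lower. The number over all genes at that threshold went from 1458 to 2073 with that covariate. The part of the cell type markers in the other lists was not tested. Against vehicle the medians of the 2 chaperone lists at 1 mg/kg were -0.02 and 0.04. Hspa5, the chief chaperone of the endoplasmic reticulum, was at 368, 369.5, 468, 494 and 478 CPM at 0.1 mg/kg and 251, 301 and 342 CPM (lowest, median, highest) at 1 mg/kg, without overlap (log2 difference -0.55, SE 0.0988, edgeR adjusted P = 0.0595). The 4 vehicle libraries were at 271, 301, 312 and 336 CPM, within the range at 1 mg/kg, so the 0.1 mg/kg libraries stood above both groups. Hspa5 overlaps the annotation of Rabepk. Dnajb1, a co-chaperone of HSP70, had a log2 difference of -0.50 (edgeR adjusted P = 0.0969). Xbp1, a transcription factor of the unfolded protein response, Pdia6, a disulfide isomerase, and Hspa1a, an inducible HSP70, were chosen after their values were seen and had -0.39 (0.0883), -0.43 (0.0969) and -0.88 (0.126).

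The promoter of Hspa5 is shown because it holds the letters of the endoplasmic reticulum stress element, CCAAT and CCACG spaced by any 9 bases, in capitals. The stretch is chr2:34771890-34772089, plus strand, GRCm38.p6, the 200 bases before the start, printed 5′ to 3′.
Hspa5: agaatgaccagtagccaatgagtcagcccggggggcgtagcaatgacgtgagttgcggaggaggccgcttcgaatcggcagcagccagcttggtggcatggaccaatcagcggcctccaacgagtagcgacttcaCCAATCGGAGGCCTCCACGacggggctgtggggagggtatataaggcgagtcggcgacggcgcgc
The element begins 65 bases before the start. CCAAT, a shorter motif searched on its own, is part of it. In windows of this length the element was present for 8 of 25 unfolded protein response genes with a listed promoter (32%) and 0.118% of all 27025 genes. The heat shock letters GAA, TTC and GAA, each spaced by any 2 bases, were present for 3 of 23 heat shock genes (13%) and 0.429% of all genes.

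The highest dose gave another comparison in which no vehicle library enters the difference. Between 6 and 1 mg/kg, edgeR called 2755 of 15118 genes (18.2%), 1337 higher at 6 mg/kg (8.84%) and 1418 lower (9.38%), although 0 genes were called at either dose against vehicle. At 6 mg/kg against vehicle 0 of 15118 were called (0%), with 2377 at an unadjusted P under 0.05 (15.7%). With only these 2 groups fitted there were 1514 calls. Kcnj3 was at 61.7 to 89.0 CPM at 1 mg/kg and fell to 40.7 ± 5.16 CPM (SD, 6 libraries) at 6 mg/kg (log2 difference -0.86, SE 0.120, edgeR adjusted P = 0.0015), with a vehicle mean of 50.02 CPM. Oxr1, an oxidation resistance gene, fell from 193 ± 22.6 to 109 ± 12.3 CPM (-0.82, SE 0.114), and Napb, which helps recycle synaptic vesicle fusion complexes, from 422 ± 37.5 to 287 ± 12.9 CPM (-0.56, SE 0.0791), each with an adjusted P of 0.0015. Serpini1, the protease inhibitor neuroserpin, fell from 160.4 ± 23.4 to 87.5 ± 14.4 CPM and Rab6a, a GTPase of Golgi traffic, from 538 ± 44.1 to 381 ± 30.0 CPM. Plcxd1, a gene with a phospholipase-like domain, rose from 47.7 ± 9.88 to 81.4 ± 14.5 CPM (0.77, SE 0.121). The comparison shares the 6 libraries at 1 mg/kg with that against vehicle, for which the leading genes, Kcnj3 among them, were chosen. The values of the leading genes here, those of Kcnj3 included, are therefore given as a description only. The log2 differences were -0.52 for Macir, 0.50 for Sema3f, 0.54 for Slc32a1 and 0.17 (SE 0.0724) for Slc25a25. Napb, Rab6a and Plcxd1 overlap another annotated gene.

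By list, called higher and called lower genes at 6 relative to 1 mg/kg were 7 and 1 of the projection neuron list, 9 and 0 of the respiratory chain, 8 and 0 of the ribosomal proteins, 0 and 12 of the autism risk genes, 5 and 10 of the glutamate receptor list, 0 and 6 of the GABA receptor list, 1 and 7 of the immediate early genes and 4 and 7 of the heat shock genes, beside 8.84% and 9.38% of all genes. These counts became, with the GC and length correction, 1 and 0 of the projection neuron list, 2 and 4 of the respiratory chain, 1 and 1 of the ribosomal proteins, 0 and 2 of the autism risk genes, 0 and 2 of the glutamate receptor list, 0 and 1 of the GABA receptor list, 0 and 1 of the immediate early genes and 0 and 1 of the heat shock genes. The median log2 difference went with it from -0.20 to -0.34 for the immediate early genes, from 0.01 to 0.13 for the projection neuron list and from -0.27 to 0.0020 for the GABA receptor list. Over all genes that correction left 98 called higher and 163 called lower. Without it, called higher and lower were also 5 and 1 of 27 xenobiotic genes, 1 and 6 of 49 calcium release genes and 3 and 6 of 26 clock genes. They were 5 and 7 of 33 cholesterol genes and 1 and 6 of 36 splicing genes, and the remaining pathway lists had at most 3 in a direction. With the correction, the xenobiotic, calcium release, clock, cholesterol and splicing lists each had at most 1 in a direction. Cell type markers moved here too. All 12 cortical excitatory markers were negative, with a median of -1.27, 4 called lower and summed levels of 436 to 2049 CPM at 1 mg/kg and 254 to 686 CPM at 6 mg/kg. Projection neuron markers had a median of 0.40, with 2 of 10 called higher and summed levels of 3482 to 7266 and 4620 to 8046 CPM. Called higher and lower were 5 and 1 of 12 microglial markers (median 0.24), 3 and 1 of 10 interneuron markers (0.31) and 1 and 3 of 10 astrocyte markers (0.0076). They were 2 and 2 of 13 vascular markers (-0.07) and 3 and 0 of 10 thalamus and pallidum markers (0.03), and the other marker lists had at most 1 in a direction. The part of these markers in the list counts was not tested. The called genes differed in base composition. The median GC content was 57.3% for the called higher genes, 42.5% for the called lower genes and 50.1% for the rest. With genes in 10 equal groups by GC content, 550 of the group with the lowest GC content were called lower and 1 higher, and 524 of the group with the highest were called higher and 2 lower. Every library at 6 mg/kg had a positive GC slope, 0.29 to 0.43, against a mean of -0.30 at 1 mg/kg (two-sided exact permutation test, P = 0.00216, the smallest possible, adjusted over 6 tests 0.013). With the GC and length correction, edgeR called 261 genes in all, of which 180 were among the 2755, and with the GC slope as a covariate 151, of which 4 were higher and 147 lower. Leaving out animal 46 or 42 of the 1 mg/kg group gave 1671 and 1770 calls.

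**Figure D5:**
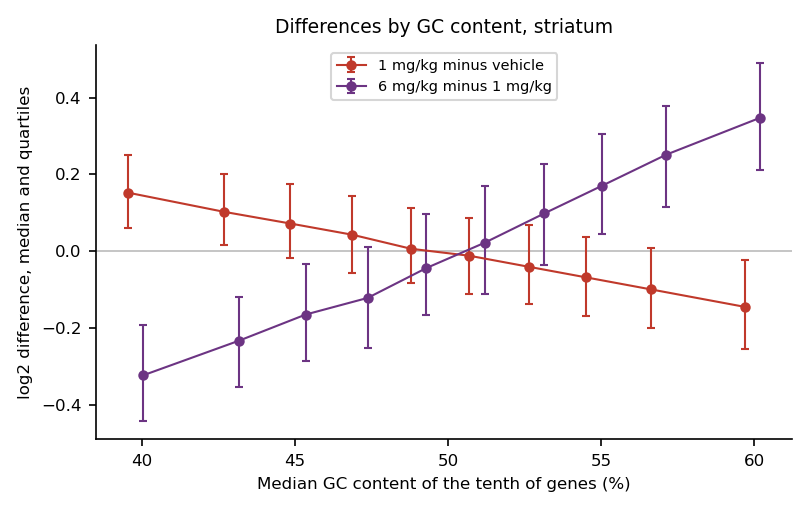
Median log2 difference of genes in 10 equal groups by transcript GC content, from lowest to highest, for 1 mg/kg minus vehicle and 6 minus 1 mg/kg. The first goes from 0.15 in the lowest group to -0.15 in the highest, and the second from -0.32 to 0.35.

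The comparison with vehicle was described by GC content as well. Across 14417 genes with a known GC content, which are not independent replicates and share the libraries of each comparison, the Spearman correlation between GC content and the log2 difference was -0.457 for 1 mg/kg minus vehicle and 0.669 for 6 minus 1 mg/kg. The 2 comparisons share the libraries at 1 mg/kg, which enter them with opposite signs, so nothing is read from the signs of the 2 values. With the GC and length correction, 873 genes were at an unadjusted P under 0.05 for 1 mg/kg against vehicle, and 0 passed after adjustment.

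The prefrontal cortex of the same dose groups, with 6 libraries at 1 mg/kg and 4 of vehicle, was set beside the striatum. The difference of the 2 effects was tested by an interaction of tissue and dose on 20 libraries. edgeR called 0 of 15114 genes (0%), with 1073 at an unadjusted P under 0.05 (7.10%), and DESeq2 called 0, with 1119. With animal 45 or 50 of the 1 mg/kg group left out, the unadjusted count was 548 and 2157, and with vehicle animal 3 or 7 left out, 564 and 667. The prefrontal cortex alone had 0 calls among 14838 genes, with 1230 at an unadjusted P under 0.05 (8.29%). Arhgap9, a GTPase-activating protein of blood cells, had the smallest interaction P. Its log2 difference was 1.89 in the prefrontal cortex, and it was at 0.885 ± 0.249 CPM (SD, 6 libraries) at 1 mg/kg and 1.53 ± 0.452 CPM (SD, 4 libraries) in vehicle in the striatum. The difference of effects was -2.67 (SE 0.522, adjusted P = 0.489). Nemp1, a nuclear membrane protein, and Casp6, a caspase, followed, with 1.04 (SE 0.248) and -1.35 (SE 0.337). Arhgap9 and Casp6 overlap other annotated genes.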

How the data were processed

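Read counts for the genes of each tissue were deposited by the authors as raw whole numbers, 1 table a tissue, under Entrez identifiers. FastQC, HISAT2 and the mm10 build are named in the submitters' processing notes, and the counting tool, annotation and use of strand are not given in the sources used here. The labels' protocols leave undecided whether poly(A) capture or ribosomal RNA depletion was used. Columns were matched to samples by title. In the striatum table no gene had a total under 10 counts, so rarer genes were not analysed here. RefSeq GRCm38.p6 named 99.9% of identifiers.

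All 21 striatum libraries were fitted together by dose with edgeR 4.0.16 in R 4.3.3 (filterByExpr, TMM, robust quasi-likelihood), which kept 15118 of 17874 genes. P-values were adjusted by Benjamini-Hochberg over all genes tested, and a gene passed at an adjusted P under 0.05. Standard errors are the log2 difference over the square root of F. Each gene's longest GENCODE transcript gave its GC content and length (95.4% of tested genes). No pair of libraries of a group agreed within sampling noise (chi-square per degree of freedom 8.83 to 50.2), so each counted as 1 sample. The fit was tested on simulated data. The interaction used 20 libraries, and the same animal number was not taken as the same mouse in it.

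Named genes were the 10 per direction described, the 4 members of each list with the smallest P, a set of pathway genes, the leading 3 by P of every other comparison, and up to 10 past the threshold by any tool. The comparison, gene lists and rules were chosen with earlier results of these data known. Alternatives were DESeq2 1.42.0, median-ratio scaling, other count filters (none, or a mean of at least 10), only the groups compared, 1 surrogate variable (sva 3.50.0), a GC and length offset, each library left out, and, added after the data were seen, the GC slope and marker scores as covariates and leaving out marker-rich libraries.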

Additional observations from a re-analysis of the deposited data

Results flagged for a closer look

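Of 66 sets of values checked within a group, 7 had a library set apart from the others by Dixon's ratio, and chance alone flags about 1 in 20 such sets. At 1 mg/kg, animal 48 had the highest summed level of projection neuron markers, 7266 CPM, and animal 45 the highest of choroid plexus markers, 4539 CPM. Animal 45 also had the highest value of Cdh6 in its group, 28.6 CPM, and the other libraries at 1 mg/kg were still above every vehicle library. In vehicle, animal 4 stood apart by its summed choroid plexus markers (788 CPM), astrocyte markers (3330 CPM) and markers of thalamus and pallidum (686 CPM), and animal 8 by its summed blood markers (547 CPM). With animals 48, 45, 4 and 8 left out in turn, the genes at an unadjusted P under 0.05 against vehicle numbered 1068, 717, 1769 and 748, against 1113 with all libraries, and edgeR called 0 each time. The calls between 6 and 1 mg/kg, 2755 with all libraries, were 2001 without animal 48 and 1873 without animal 45. Animals 45 and 8 are also among the marker-rich libraries that were left out together, while animals 48 and 4 were kept in that setting.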

How the results depend on the processing

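For 1 mg/kg against vehicle, edgeR called 0 genes under every setting run except the cortical marker score as a covariate (1, Sox21), and DESeq2 called 6. The 1113 genes at an unadjusted P under 0.05 were 626 with the GC slope and 2169 with the cortical score as a covariate. Leaving out 1 library at a time gave 0 to 0 calls there and 0 to 0 for the interaction with the prefrontal cortex. For 1 against 0.1 mg/kg, where the full fit had 1 call, there were 0 with median-ratio scaling, without a count filter, with only the 2 groups, with the GC slope as a covariate and without the marker-rich libraries, 2 with the cortical or choroid plexus score, 6 with 1 surrogate variable, 10 with the projection neuron score, 39 with the GC and length offset, 83 with DESeq2, and 0 to 10 with 1 library left out (10 without animal 41, 6 without 48 and 2 without 24). For 6 against 1 mg/kg, 2755 calls became 1514 with only the 2 groups, 1508 without the marker-rich libraries, 261 with the offset for GC and length, 151 with the GC slope as a covariate, and 1671 (without animal 46) to 3790 (without animal 50). The difference in mean depth, -0.562 M counts (two-sided exact permutation test, P = 0.438), was -0.99986 (without animal 50, P = 0.0238) to -0.262 with 1 library left out. The cause of these shifts was not tested.

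Log2 differences against vehicle of genes near 0, or of markers carried by few libraries, changed sign. They were 0.054 for Ahr, -0.046 for Mbp, -1.10 for Ttr and -0.26 for Otx2 with 1 surrogate variable. The offset gave -0.072 for Dio2 and 0.10 for Dbp, and the GC slope 0.022 for Ahr, 0.062 for Dbp and -0.044 for Arntl. With the cortical score they were -0.097 for Ryr2, -0.0051 for Thrb, -0.14 for Dio2 and -0.24 for Slc17a7, and with the projection neuron score 0.064 for Drd1, 0.060 for Tac1, 0.056 for Ryr3, 0.014 for Ahr and 0.053 for Dbp. With the choroid plexus score they were 0.016 for Ahr, -0.57 for Ttr and -0.086 for Otx2. Drd1 and Tac1 are part of the projection neuron score, Slc17a7 of the cortical and Ttr and Otx2 of the choroid plexus score. Without the marker-rich libraries the log2 differences were 0.089 for Drd1, 0.23 for Tac1, -0.0060 for Ryr2, -0.0093 for Arntl, 0.074 for Ryr3, 0.18 for Ahr, 0.16 for Cyp1b1, 0.10 for Dbp, -0.21 for Mbp, -2.08 for Ttr, 0.89 for Alas2, 0.45 for Hba-a1, 0.75 for Hbb-bt, -1.04 for Folr1, -0.49 for Kl, -0.52 for Otx2 and -0.56 for Sostdc1. With 1 library left out they ranged from -0.13 to 0.15 for Ahr, -0.84 to 0.66 for Alas2, -0.032 to 0.20 for Arntl, -0.35 to 0.20 for Cyp1b1, -0.17 to 0.10 for Dbp, -0.083 to 0.15 for Dio2, -0.94 to 0.42 for Hba-a1, -0.78 to 0.56 for Hbb-bt, -0.070 to 0.21 for Mbp, -0.13 to 1.15 for Otx2, -0.11 to 0.092 for Ryr2 and -0.16 to 1.28 for Slc17a7.

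Animal numbers recur in both brain regions. A fit with the animal number as a replicate block called 0 genes for the interaction, with 1316 at an unadjusted P under 0.05 against 1073 without it. Same-numbered libraries correlated at -0.0906 to 0.188 in their deviations, with a mean of 0.0851 against -0.0198 for different numbers. The correlation was over 0.1 for 5 of 10 numbers, and 5 of 10 correlated best with their own number. How many would do so by chance was not tested. Whether a number marks the same mouse was left undecided, and the main fit of the interaction does not use it.

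A P that misses the threshold does not show that levels were equal.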
